A study of Mus musculus with 4 samples.

Results

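The genes described here were 9 members of the transforming growth factor beta (TGF-beta) pathway, chosen by symbol from the 32285 genes of the count tables. They were the ligands Tgfb1, Tgfb2 and Tgfb3, the receptors Tgfbr1, Tgfbr2 and Acvr1, and the target genes Ccn2, Thbs1 and Tgfbi. Each symbol matched 1 gene, and all 9 genes had unique molecular identifiers (UMIs, each standing for 1 captured mRNA molecule) in the cells kept. The samples were 4 single-cell RNA-seq (scRNA-seq) libraries of ascites from female FVB mice, all carrying tumors of the mouse ovarian cancer line Br-Luc (p53-/-, brca1-/-, myc, Akt-myr), collected 6 weeks after the tumor cells were injected. In 2 libraries the mice had received the control siRNA (siCont) and in 2 the LNA-modified siRNA against Fxr1 (siFXR1-LNA), each in the carrier jetPEI, and all 4 came from immunocompetent hosts. LNA, a locked nucleic acid, is a sugar modification that protects an siRNA from nucleases. Ascites of several mice was pooled in each library, so the p-values below measure the spread between pools, and the comparison of the groups asked how the treatment changed tumor and other cells of the ascites.

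TGF-beta ligands are secreted as latent complexes, and once activated they bind the type II receptor Tgfbr2, which phosphorylates the type I receptor Tgfbr1. The activated type I receptor phosphorylates Smad proteins, which enter the nucleus with Smad4 and switch on genes for matrix and for feedback inhibitors of the pathway. In the peritoneal cavity and in ovarian tumors the pathway is known for restraining T cells and NK cells, for shaping macrophages and for driving mesothelial and fibroblast cells to make matrix.

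Start-site sequences were taken from RefSeq (GRCm38.p6), 250 bases before to 50 after each start, for 6 of the 9 members. Those of 2 ligands and of the type I receptor Tgfbr1 are shown. Tgfb1 and Tgfb2 had their higher levels in different cells, macrophages against fibroblasts and epithelial or mesothelial cells. Tgfbr1 was the only receptor among the 9 members to pass the test between the groups, and only in macrophages. The macrophages of the groups lay partly in different subclusters, and the result did not pass without some of the libraries. Capitals mark, on either strand, TATAAA (the TATA box), ACGTG (the core bound by hypoxia-inducible factors) and CAGAC (a Smad-binding element).
Tgfb1, chr7:25686752-25687051, plus strand: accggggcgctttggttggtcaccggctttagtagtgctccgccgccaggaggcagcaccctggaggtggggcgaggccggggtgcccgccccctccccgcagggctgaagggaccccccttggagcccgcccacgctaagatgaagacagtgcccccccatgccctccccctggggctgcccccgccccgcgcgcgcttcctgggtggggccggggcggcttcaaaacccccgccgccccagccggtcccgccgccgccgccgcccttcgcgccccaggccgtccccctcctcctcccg
Tgfb2, chr1:186705940-186706239, minus strand: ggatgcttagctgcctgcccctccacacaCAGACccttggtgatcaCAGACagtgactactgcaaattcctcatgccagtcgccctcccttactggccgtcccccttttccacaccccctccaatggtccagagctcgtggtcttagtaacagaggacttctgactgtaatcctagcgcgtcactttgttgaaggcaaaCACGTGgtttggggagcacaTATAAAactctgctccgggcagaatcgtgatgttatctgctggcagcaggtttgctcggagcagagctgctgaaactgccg
Tgfbr1, chr4:47352972-47353271, plus strand: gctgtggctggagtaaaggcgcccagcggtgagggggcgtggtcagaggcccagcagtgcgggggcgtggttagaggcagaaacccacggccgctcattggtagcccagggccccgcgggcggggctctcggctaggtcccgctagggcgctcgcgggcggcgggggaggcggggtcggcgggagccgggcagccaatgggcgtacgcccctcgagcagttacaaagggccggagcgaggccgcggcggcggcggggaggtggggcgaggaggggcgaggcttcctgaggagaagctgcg
The Tgfb2 window held TATAAA 31 bases before the start, CAGAC at 2 places, 221 and 204 bases before it, and a palindrome in which ACGTG was read on both strands, 51 and 50 bases before it. Neither the Tgfb1 window nor the Tgfbr1 window shown held any of these motifs, while a further RefSeq start of Tgfbr1 (window chr4:47385966-47386265, GC content 52.0%) held CAGAC 203 bases before it. Over 32851 promoters of this length, 13.6% held TATAAA, 19.6% ACGTG and 49.6% CAGAC. The GC content was 77.0% for Tgfb1, 74.7% for the Tgfbr1 window shown and 54.3% for Tgfb2, against a median of 52.7% over all promoters. These matches describe letters in a window, with no measurement of binding.

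The libraries held 101500063 and 88346685 UMIs for siCont and 113606837 and 78179267 for siFXR1-LNA, and 132644 cells were kept, 16874 to 54344 per library. Over whole libraries, Fxr1, the targeted gene, was not lower under the siFXR1-LNA label. It had 57.3 and 36.6 CPM (UMIs per 1000000 UMIs) in the libraries labelled siCont and 104 and 74.4 in those labelled siFXR1-LNA. Without hemoglobin genes, which took 29.6% and 41.1% of siCont UMIs and 10.0% and 9.12% of siFXR1-LNA UMIs, Fxr1 stood at 81.3, 62.1, 116 and 81.8 CPM. The group names below are therefore the labels of the libraries. Whole-library values mix all cell classes, and the make-up of the libraries differed between the groups, as given below. The paper reported lower Fxr1 in epithelial cells after siFXR1-LNA treatment, and Fxr1 levels by class are not given here. Pairs of libraries shared 575 to 2846 cell barcodes. Erythrocytes made up 60.9% and 62.9% of cells in siCont and 0.0276% and 0.344% in siFXR1-LNA samples. A cluster that no marker list named, cluster 0, made up 0.151% and 0.183% of siCont cells and 75.5% and 31.9% of siFXR1-LNA cells, and its leading genes were Sprr1a, Stbd1, Car9, Lox, Trib3, Cryab, F3, Gsta4, Ccn1 and Gm12840.

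Tgfb1 (chr7:25687002-25705077, plus strand, GRCm38), the ligand most associated with leukocytes, was highest among the larger classes in macrophages, where it had 224 and 252 CPM in the siCont libraries and 106 and 147 CPM in the siFXR1-LNA libraries. Dendritic cells followed at 124, 153, 78.7 and 99.2 CPM, a range that overlapped that of macrophages. The levels were lowest in epithelial or mesothelial cells, at 13.5 to 28.5 CPM, and in erythrocytes. B cells (61.0 to 86.5 CPM), T cells (40.1 to 72.6 CPM) and granulocytes (35.6 to 60.2 CPM) lay between. The few platelets counted in 2 libraries held 301 and 153 CPM.

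Tgfb2 (chr1:186622792-186705989, minus strand), a ligand of epithelia and stroma, was highest in fibroblasts, at 61.2, 162, 142 and 129 CPM, and in epithelial or mesothelial cells, at 97.9, 96.9, 173 and 92.3 CPM. The name of the fibroblast class is uncertain, since its 7 markers summed to 1582, 5976, 551 and 1591 CPM, and in siFXR1-LNA replicate 1 this was below the sum in B cells (633 CPM). The class was subcluster 2 of the epithelial or mesothelial cluster, with 5 of 10 epithelial or mesothelial and 4 of 7 fibroblast markers raised. Kcnd2 and Tenm3 were leading genes of it and of subclusters 0 and 1 of that cluster. The cluster as a whole raised 5 of the 10 epithelial or mesothelial markers, Krt8, Muc16, Msln, Wt1 and Lrrn4, but not Epcam. Its subclusters 0 and 1 raised 4 of 10 and its subcluster 3 raised 10 of 10. The Tgfb2 values of fibroblasts and of epithelial or mesothelial cells overlapped. Cluster 0, at 21.8 to 70.4 CPM, lay below every epithelial or mesothelial value and overlapped fibroblasts through siCont replicate 1. Tgfb3 (chr12:86056745-86079041, minus strand), the third ligand, was highest in epithelial or mesothelial cells, at 65.9, 71.0, 38.6 and 56.0 CPM. Fibroblasts followed at 52.1, 51.7, 29.3 and 32.2 CPM, a range that overlapped. Among sums of at least 10 cells, no other class reached the lowest fibroblast value for Tgfb3 except mast cells and basophils, where 29.5 CPM was the highest. The ligands thus had different orders, Tgfb1 highest in macrophages and dendritic cells among the larger classes, and Tgfb2 and Tgfb3 in epithelial or mesothelial cells and fibroblasts.

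Tgfbr1 (chr4:47353222-47414931, plus strand), the signaling type I receptor, had 123, 193, 173 and 152 CPM in epithelial or mesothelial cells and 104, 129, 134 and 127 CPM in fibroblasts. Mast cells and basophils, with 65 to 114 cells per library, ranged from 98.2 to 310 CPM and overlapped both. Macrophages came next at 37.4 to 76.8 CPM, with no overlap with fibroblasts. Tgfbr2 (chr9:116084293-116175360, minus strand), the ligand-binding receptor, was highest in T cells, at 160, 227, 141 and 201 CPM, followed by NK cells, B cells (114 to 168 CPM) and mast cells, which overlapped. Epithelial or mesothelial cells had only 35.7 to 51.9 CPM of Tgfbr2, below every value of T and B cells.

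Acvr1 (chr2:58388644-58567157, minus strand), a type I receptor used mainly by bone morphogenetic proteins and activins, was highest in fibroblasts (85.0, 136, 92.4 and 105 CPM) and epithelial or mesothelial cells (96.9, 99.1, 112 and 65.3 CPM). Macrophages held 13.2 to 15.7 CPM, and B cells, T cells and granulocytes at most 10.8 CPM. In cells thinned to 1000 UMIs, 6.21% to 10.3% of epithelial or mesothelial cells had an Acvr1 UMI, against 0.0829% to 1.38% of B cells.

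**Figure D1:**
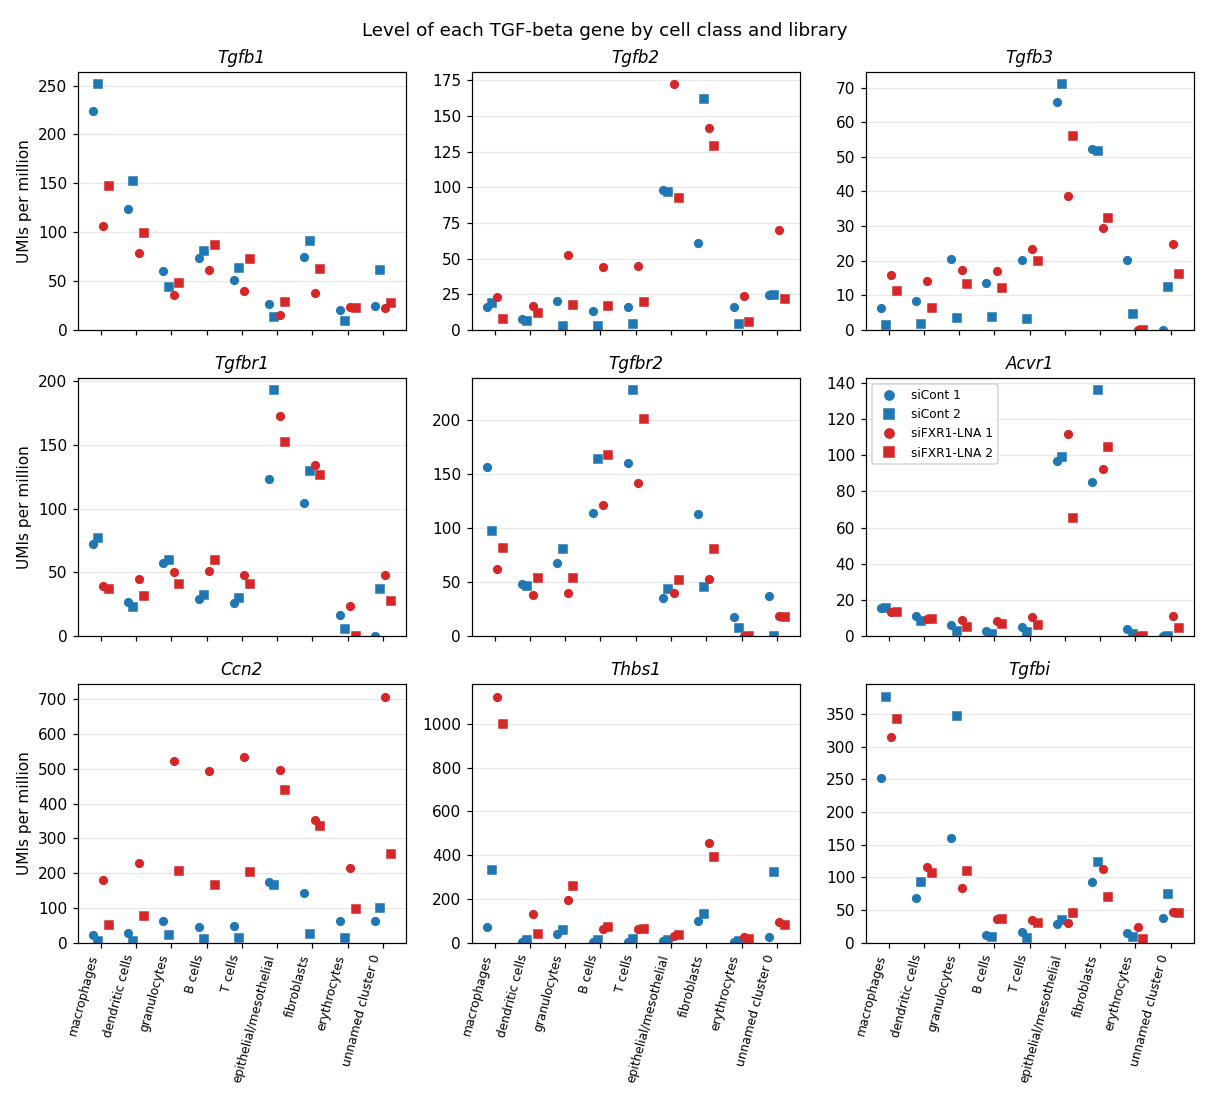
Level of each gene in UMIs per 1000000 (vertical axes, linear from 0) in 9 cell classes (horizontal axes), with 1 point per library, blue for siCont and red for siFXR1-LNA, circles for replicate 1 and squares for replicate 2. Tgfb1 was highest in macrophages, Acvr1 in fibroblasts and epithelial or mesothelial cells, and Ccn2 stood higher in both siFXR1-LNA libraries than in both siCont libraries of every class plotted.

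Among the target genes, Tgfbi (chr13:56609523-56639562, plus strand), which encodes a secreted matrix protein, was highest in macrophages, at 253, 377, 315 and 343 CPM. Granulocytes followed with 160 and 348 CPM in siCont and 84.3 and 110 CPM in siFXR1-LNA libraries, and overlapped macrophages through the siCont replicate 2 value. Thbs1 (chr2:118111876-118127133, plus strand), thrombospondin-1, a platelet and matrix protein that can activate latent TGF-beta, was highest in platelets, at 2122 and 3210 CPM in the 2 libraries with 10 or more such cells. Macrophages and fibroblasts followed. Ccn2 (chr10:24595442-24598683, plus strand), connective tissue growth factor, had an order with no clear steps, since each of its 12 classes overlapped the next.

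Changes between the groups were tested in the 9 classes with at least 10 cells in every library, on UMI counts summed per library, with edgeR's quasi-likelihood test and Benjamini-Hochberg adjustment over all genes of a class. Of 76 tests of a member in a class, 5 passed the adjusted threshold of 0.05, which was 6.58%, against 4.54% of 97590 tests of all genes. The 4 higher in siFXR1-LNA were Ccn2 and Thbs1 in epithelial or mesothelial cells, Thbs1 in fibroblasts and Ccn2 in granulocytes, and the 1 lower was Tgfbr1 in macrophages. No ligand passed in any class. All 5 kept their sign under each of 11 alternatives, but each lost its call when at least 1 library was left out.

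**Figure D2:**
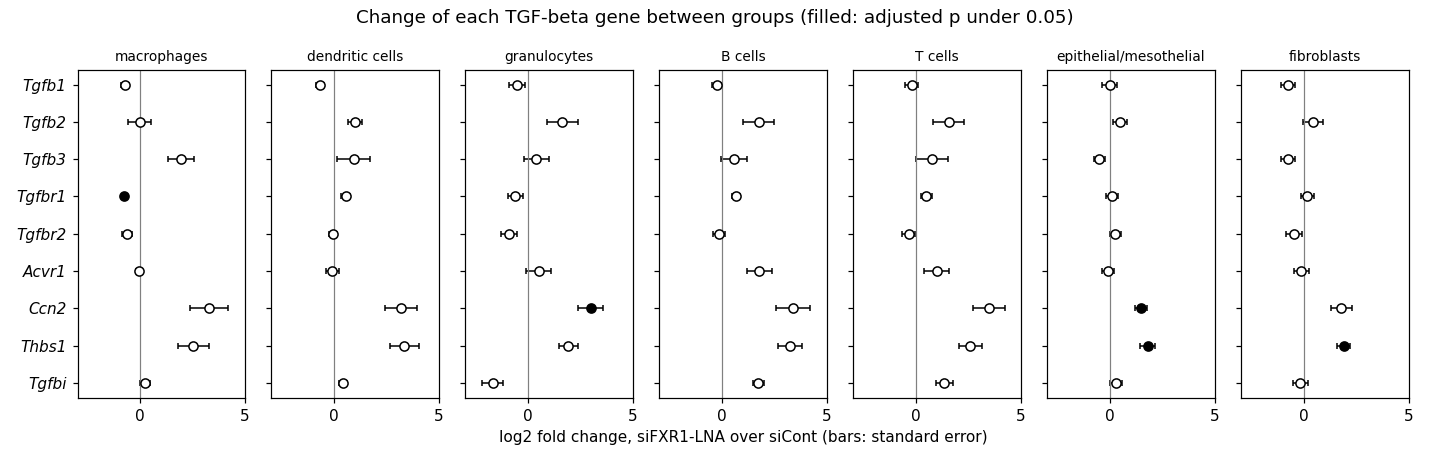
Log2 fold change of each gene, siFXR1-LNA over siCont (horizontal axes, bars of 1 standard error, 2 libraries per group), in 7 cell classes, with filled points for an adjusted p under 0.05. Ccn2 and Thbs1 lay above 0 in all 7 classes, and 5 points are filled.

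In macrophages, Tgfbr1 was the single member called, where 18.2% of 14244 genes were called in either direction and 9.1% of the 14244 were lower. Its level was 72.5 and 76.8 CPM in the siCont libraries and 39.6 and 37.4 CPM in the siFXR1-LNA libraries, without overlap. The log2 fold change was -0.77 (SE 0.12, adjusted p = 0.018). Thinned to 1000 UMIs, 7.26% and 7.84% of siCont macrophages had a Tgfbr1 UMI, against 4.32% and 4.34% of siFXR1-LNA macrophages. The call was lost without siCont replicate 2 (adjusted p = 0.053), without siFXR1-LNA replicate 1 (0.102) and without siFXR1-LNA replicate 2 (0.091).

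The macrophages of the 2 groups were made of different subclusters. Subcluster 1, led by Arg1, Nos2 and Mmp14, held 2517 and 2199 siFXR1-LNA cells and 0 and 2 siCont cells, while subcluster 2, led by Nr1h3, Ccl12 and Siglec1, held 1057 and 715 siCont cells and none of siFXR1-LNA. Tgfbr1 stood at 119 and 123 CPM in subcluster 2 and at 31.8 and 26.7 CPM in subcluster 1. In subcluster 0, led by Retnla and Apoe and present in all 4 libraries with 1254 to 3079 cells each, it was 58.8 and 48.8 CPM in siCont and 62.3 and 60.4 CPM in siFXR1-LNA libraries. The difference there was 0.19 (SE 0.17, adjusted p = 0.70), the other sign than over all macrophages. Subcluster 4, with 26 to 161 cells and led by the proliferation genes Pclaf and Birc5, held 74.6 and 71.6 against 37.3 and 37.7 CPM, with an adjusted p of 0.14. Neither subcluster 0 nor subcluster 4 gave a Tgfbr1 difference that passed, and subclusters 1 and 2 could not be compared between groups.

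Tgfb1 in macrophages was lower in both siFXR1-LNA libraries, without overlap, but the log2 fold change of -0.73 (SE 0.20) had an adjusted p of 0.063 and did not pass. The share of macrophages with a Tgfb1 UMI, in thinned cells, was 19.9% and 21.6% in siCont and 9.53% and 13.5% in siFXR1-LNA libraries. In subcluster 2 the level was 276 and 355 CPM and in subcluster 1 it was 101 and 121 CPM. In subcluster 0 the values of 209 and 194 CPM in siCont overlapped those of 121 and 201 CPM in siFXR1-LNA libraries. Tgfbr2 in macrophages had 157 and 97.6 CPM against 62.2 and 81.2 CPM (log2 fold change -0.64, SE 0.25, adjusted p = 0.14). Dendritic cells had Tgfb1 values of the same direction, with a log2 fold change of -0.66 (SE 0.20, adjusted p = 0.14). No member was called in dendritic cells, where 2.72% of genes were, while 5 members had an unadjusted p under 0.05 and DESeq2 called 1. Of 11931 genes tested there, 2356 had an unadjusted p under 0.05 and DESeq2 called 599.

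**Figure D3:**
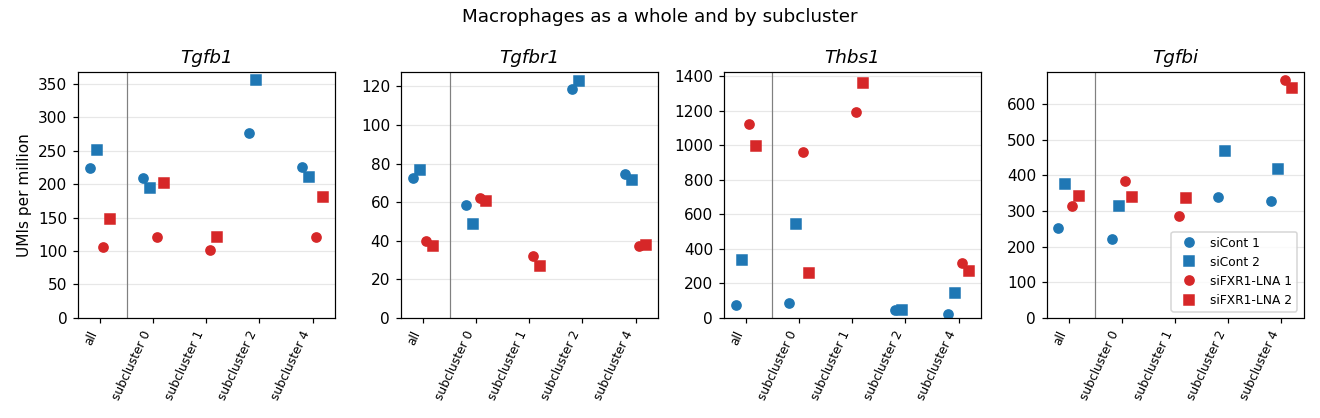
Levels of Tgfb1, Tgfbr1, Thbs1 and Tgfbi in UMIs per 1000000 (vertical axes, linear from 0) in all macrophages and in subclusters with at least 10 cells in a library, 1 point per library, blue for siCont and red for siFXR1-LNA. Tgfbr1 differed between subclusters 1 and 2, each found in 1 group, and stood slightly higher in the siFXR1-LNA libraries in subcluster 0.

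For Tgfbr1 the change differed between classes by a direct test, an interaction of class and group with library as a block. In dendritic cells Tgfbr1 had 27.0 and 22.8 CPM in siCont and 44.6 and 31.2 CPM in siFXR1-LNA libraries, and in B cells 29.4 and 32.0 against 51.4 and 59.6 CPM. Both classes had their higher values in the siFXR1-LNA libraries, the other direction than macrophages, although neither change passed on its own (adjusted p = 0.25 and 0.27). Over all libraries T cells ranged from 26.4 to 48.0 CPM and cluster 0 from 0 to 48.1 CPM, and both overlapped dendritic and B cells. The part of cluster 0 RNA in the Tgfbr1 differences was not tested. The change minus that of macrophages was 1.31 log2 units in dendritic cells (SE 0.21, adjusted p = 0.0025) and 1.39 in B cells (SE 0.24, adjusted p = 0.0056). The dendritic cells of the groups were made of partly different subclusters, with 534 and 283 siCont against 0 and 9 siFXR1-LNA cells in subcluster 1 and 318, 180, 197 and 255 cells in subcluster 0. Of all genes, 6.32% passed this test in dendritic cells and 3.64% in B cells. Over all classes, 9 of 72 such tests of members passed (12.5%), against 2.4% of all genes. The others of the 9 were in B cells, T cells, fibroblasts and granulocytes, where 3.64%, 1.43%, 1.75% and 4.63% of genes passed. For each gene these tests subtract the same macrophage change, so they are not separate results. The macrophages of the groups lay partly in different subclusters, as given above.

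Ccn2 was higher in siFXR1-LNA libraries in every class tested, but passed only in granulocytes and in epithelial or mesothelial cells. In epithelial or mesothelial cells it had 174 and 166 CPM in siCont and 497 and 438 CPM in siFXR1-LNA libraries, without overlap. The log2 fold change was 1.48 (SE 0.28, adjusted p = 0.0094), in a class where 7.42% of genes were called and 2.74% were higher. It did not pass without siCont replicate 1 (adjusted p = 0.095). The siFXR1-LNA cells lay mainly in subcluster 0 (1135 and 277 cells, against 9 and 5 of siCont) and the siCont cells in subcluster 1 (552 and 79 cells, against 30 and 13). Within subcluster 1, Ccn2 had 147 and 140 CPM against 289 and 279 CPM, and in subcluster 3 it had 215 and 223 CPM against 533 and 258 CPM, both without a test.

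In granulocytes Ccn2 was 62.8 and 20.5 CPM in siCont and 521 and 206 CPM in siFXR1-LNA libraries (log2 fold change 3.00, SE 0.61, adjusted p = 0.029), in a class where 2.94% of genes were called and 0.892% were higher. It did not pass without a filter on low counts (adjusted p = 0.250) or without siFXR1-LNA replicate 1 (adjusted p = 0.194). Here too the cells of the groups lay in different subclusters, subcluster 0 with 5367 and 4469 siFXR1-LNA cells and subcluster 1 with 434 and 885 siCont cells. Within subcluster 1, Ccn2 had 62.4 and 21.0 CPM in siCont and 279 and 153 CPM in siFXR1-LNA libraries, from 59 and 297 cells in the latter and without a test.

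The Ccn2 level of granulocytes was near that of lymphocytes of the same library, which are not known as a source of this mRNA. T cells had 46.4, 13.1, 533 and 202 CPM and B cells 44.3, 11.4, 494 and 167 CPM. In cells thinned to 1000 UMIs, with median depths of 1910 to 2531 UMIs in T cells, 1415 to 2115 in granulocytes, 4888 to 8498 in macrophages and 4909 to 8372 in epithelial or mesothelial cells before thinning, the shares of T cells with a Ccn2 UMI were 4.41%, 1.83%, 44.0% and 19.3%. Granulocytes had 6.40%, 3.00%, 41.4% and 18.5%, so their share was above that of T cells in the siCont libraries and not above it in the siFXR1-LNA libraries, where no level over background is read from it. Macrophages, at 2.77%, 0.341%, 19.3% and 6.64%, were below T cells in all 4 libraries. Epithelial or mesothelial cells had 13.8% (95% exact binomial interval 11.4% to 16.5%) and 11.2% (5.93% to 18.8%) in siCont and 36.2% (33.5% to 39.0%) and 29.4% (24.7% to 34.4%) in siFXR1-LNA libraries. These exceeded the T cell shares in 3 libraries and fell below the T cell share in siFXR1-LNA replicate 1, and intervals cover counting error alone.

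Ccn2 also moved with the leading genes of cluster 0. In the siFXR1-LNA libraries, over 16 sums (7 named classes and cluster 0 in each library), Ccn2 stood at 44.9 to 83.6 UMIs per 100 summed UMIs of those 10 genes, a 1.86-fold range, while its level ranged 13.8-fold, from 51.3 to 707 CPM. In the siCont libraries the ratio ranged from 8.70 to 83.4 over 14 sums. The ratio for Thbs1 ranged 314-fold in the siFXR1-LNA libraries, from 3.38 to 1060. The part of cluster 0 RNA in the Ccn2 differences was not tested.

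**Figure D4:**
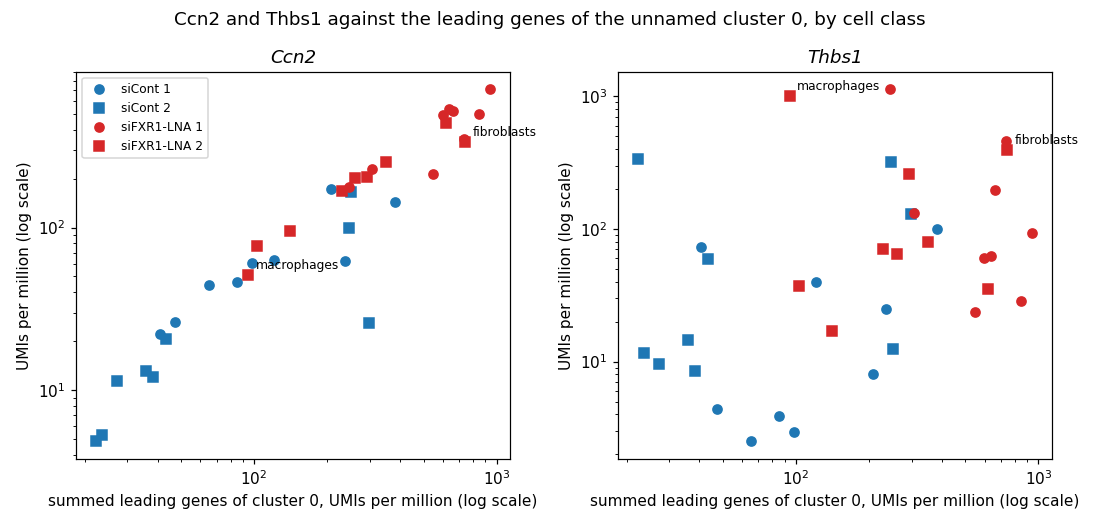
Level of Ccn2 (left) and Thbs1 (right) against the summed level of the 10 leading genes of cluster 0, both in UMIs per 1000000 on log scales, with 1 point per cell class and library, blue for siCont and red for siFXR1-LNA. Ccn2 was higher where the sum was higher among the red points, whereas Thbs1 was highest in macrophages, where the sum was low.

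Thbs1 was higher in siFXR1-LNA libraries in macrophages, fibroblasts, epithelial or mesothelial cells, granulocytes, dendritic cells, B cells and T cells, without overlap in any of these classes. In fibroblasts it had 99.8 and 129 CPM in siCont and 456 and 392 CPM in siFXR1-LNA libraries. The log2 fold change was 1.89 (SE 0.33, adjusted p = 0.038), where 1.53% of genes were called and 0.725% were higher. That class held 112 and 14 siCont cells and 235 and 61 siFXR1-LNA cells, and the siCont replicate 2 value rests on 20 UMIs. The call was lost without siCont replicate 1 (adjusted p = 0.106), without siFXR1-LNA replicate 1 (0.252) and without cells of high doublet score (0.074).

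In epithelial or mesothelial cells Thbs1 rose from 8.06 and 12.4 CPM to 28.6 and 35.2 CPM (log2 fold change 1.79, SE 0.34, adjusted p = 0.0099), and the call was lost without siCont replicate 1 (adjusted p = 0.146). Those levels were lower than the 60.0 and 70.4 CPM in B cells and 62.2 and 64.3 CPM in T cells of the siFXR1-LNA libraries, types that should lack the gene, and so were the thinned shares (3.72% and 4.24% against 6.04% and 6.18% of T cells). No level over background is read from them in those libraries. In siCont replicate 1 the epithelial or mesothelial level was above that of T cells (3.89 CPM) and B cells (2.51 CPM), and in siCont replicate 2 it was between B cells (9.61 CPM) and T cells (14.5 CPM). In fibroblasts 19.1% and 21.3% of thinned siFXR1-LNA cells had a Thbs1 UMI, above those T cell shares. Markers of other cell types were present in the fibroblast class. The 7 granulocyte markers summed to 78.2 and 84.1 CPM in siCont (3 and 2 of them at 0) and to 5006 and 3811 CPM in siFXR1-LNA libraries (none at 0). The 9 macrophage markers summed to 10248, 2037, 4670 and 5104 CPM, with 2 at 0 in siCont replicate 2, and the 7 platelet markers to 209, 136, 673 and 229 CPM, with 1 to 4 at 0. The granulocyte markers thus moved with Thbs1, and the part of these cell types in the result was not tested.

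Macrophages had 73.3 and 334 CPM of Thbs1 in siCont and 1125 and 999 CPM in siFXR1-LNA libraries, the highest of the classes tested in all libraries but siCont replicate 1, where fibroblasts were higher. The libraries within siCont differed by more than those within siFXR1-LNA, and the log2 fold change of 2.55 (SE 0.73, adjusted p = 0.072) did not pass. Thinned shares were 5.44%, 15.8%, 46.9% and 39.5%, far above the shares of T cells in the same libraries. Subcluster 1 held 1192 and 1359 CPM and subcluster 2 held 44.9 and 43.5 CPM. Within subcluster 0 the values of 85.8 and 541 CPM overlapped those of 962 and 261 CPM. The 7 platelet markers summed to 781, 1554, 2228 and 2256 CPM in macrophages, with none at 0. Most of this was Pf4 (774, 1543, 2155 and 2195 CPM). Ppbp moved with Thbs1, at 3.38 and 3.78 CPM in siCont and 65.99 and 56.85 CPM in siFXR1-LNA libraries. Itga2b was at most 2.97 CPM, Gp1bb at most 1.53 CPM, Gp9 at most 1.4 CPM, Tubb1 at most 1.3 CPM and Treml1 at most 1.24 CPM. The part of platelet RNA in the result was not tested.

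Tgfbi did not pass in any class, macrophages included (adjusted p = 0.52). In granulocytes it was lower in siFXR1-LNA libraries, without overlap, with a log2 fold change of -1.70 (SE 0.51, adjusted p = 0.11). In B cells it had 10.9 and 8.15 CPM against 36.3 and 35.5 CPM (log2 fold change 1.73, SE 0.26, adjusted p = 0.080), below every macrophage value. Within macrophage subcluster 4, where 4.78% of genes were called, it was higher in siFXR1-LNA libraries, with 328 and 419 CPM against 668 and 645 CPM (adjusted p = 0.026). Ccn2 was the other member called there (adjusted p = 0.023), with 14.6, 2.19, 70.5 and 35.7 CPM, each below the T cell value of the same library. In subcluster 0 no gene was called by edgeR, of 12720 tested, while 1290 had an unadjusted p under 0.05.

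In B cells, T cells and erythrocytes no member was called, where 0.112%, 0.291% and 0.0% of genes were. Erythrocytes held only 15 and 58 siFXR1-LNA cells, against 22123 and 15795 siCont cells, which limits the test there. Their median log2 fold change over all genes was -0.88. At an unadjusted p under 0.05 there were 5 members in B cells and 3 each in T cells and erythrocytes. DESeq2 called 2 in B cells, 2 in T cells and none in erythrocytes. Of all genes, 1786 of 12450 had an unadjusted p under 0.05 in B cells, 1381 of 12019 in T cells and 1003 of 11498 in erythrocytes. DESeq2 called 447, 340 and 34 genes in these classes. In mast cells and basophils, 4 of the 9 members could be tested and none was called, where 2.37% of genes were, with 1 at an unadjusted p under 0.05 and none by DESeq2.

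A list of 70 other genes of the pathway was tested beside the members, and 26 of its 443 tests passed (5.87%), 21 higher and 5 lower. Macrophages had most of them, 11 higher, 4 lower and 47 not past the threshold of 62 tested, where 18.2% of all genes were called, with a median log2 fold change of 0.45 against 0.01 over all genes. Among activators of latent TGF-beta, Mmp9 stood at 16.1 and 14.2 CPM in siCont and 242 and 238 CPM in siFXR1-LNA macrophages (log2 fold change 4.16, SE 0.14, adjusted p = 0.0018). Markers of granulocytes, which had 1089, 1135, 501 and 707 CPM of Mmp9, moved with it in macrophages, their 7 genes summing to 117, 437, 1118 and 1375 CPM with none at 0, and their part in the result was not tested. Mmp14, a membrane protease and a leading gene of subcluster 1, had 34.1 and 42.1 against 296 and 295 CPM. The integrin subunit Itgb5, part of an integrin that can bind latent TGF-beta, fell from 130 and 120 CPM to 47.8 and 59.6 CPM.

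Target genes moved in both directions in macrophages. Pmepa1, a target that feeds back on the pathway, fell from 51.0 and 29.9 CPM to 7.69 and 7.32 CPM (log2 fold change -2.24, SE 0.27, adjusted p = 0.011). Of 17 target genes tested, 2 were higher, Acta2 among them, and 2 lower, against 18.2% of all genes called in either direction. Acta2, smooth muscle actin, was low throughout, at 2.58 and 2.07 against 5.81 and 9.78 CPM.

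Some signal transducers and receptors outside the members were also called in macrophages. Smad4, the shared Smad, rose from 51.6 and 52.9 CPM to 106 and 88.1 CPM (log2 fold change 1.07, adjusted p = 0.014). In its group of Smads, partners and inhibitors 3 of 15 tested were higher and 0 lower, and of other receptors 2 of 8 were higher and 1 lower. Both counts stand against 18.2% of all genes called in macrophages in either direction. The activin receptors Acvr2a and Acvr1b rose from 10.6 and 13.6 to 29.7 and 24.0 CPM and from 11.5 and 13.4 to 23.6 and 23.0 CPM. The activin antagonist Fst was called on very few UMIs, at 0.178 and 0.118 CPM against 1.75 and 1.82 CPM.

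Outside macrophages, Mmp9 was also called in dendritic cells (3.82 and 7.31 against 39.1 and 38.1 CPM) and in fibroblasts (3.40 and 6.47 against 145 and 111 CPM), and Mmp14 in dendritic cells (9.26 and 9.65 against 83.7 and 57.1 CPM). The 7 granulocyte markers moved with Mmp9 here too, summing to 133, 817, 2178 and 1282 CPM in dendritic cells and to 78.2, 84.1, 5006 and 3811 CPM in fibroblasts. Their part in these results was not tested.

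In epithelial or mesothelial cells 3 pathway genes were higher and 1 lower of 56 tested, a share near the 7.42% of all genes called in this class. Of these, Bhlhe40, a transcription factor, had 79.5 and 99.1 against 269 and 245 CPM, and Smurf1, a ubiquitin ligase that marks receptors and Smads for breakdown, had 73.8 and 71.0 against 225 and 115 CPM. Bambi, a decoy receptor, fell from 6.40 and 10.1 CPM to 0.986 and 2.22 CPM. In granulocytes 3 of 58 were higher, among them the Smad co-repressor Tgif1 (11.5 and 10.8 against 51.2 and 59.9 CPM) and Id2 (53.8 and 135 against 538 and 734 CPM), an inhibitor of helix-loop-helix factors. Of all genes, 2.94% were called in granulocytes, 1.53% in fibroblasts, 0.291% in T cells and 2.72% in dendritic cells. The pathway genes called were 1 of 50 in fibroblasts, 1 of 52 in T cells and 2 of 53 in dendritic cells. None was called in B cells, erythrocytes, or mast cells and basophils. At an unadjusted p under 0.05 these last classes had 18, 6 and 1 genes, and DESeq2 called 9 in B cells and none in erythrocytes or mast cells.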

How the data were processed

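The deposited values were raw UMI counts (whole numbers, a matrix of genes by barcodes per library) that the authors made with Cell Ranger 7.0.0 on the mm10 build, according to the submitters' processing notes. The kit is named differently in the labels and in the study's methods. Following the methods, barcodes were required to have 100 to 4800 genes and no more than 15% of UMIs from mitochondrial genes, and the cells left were clustered in Seurat 5.3.0 (Louvain resolution 0.1, R 4.3.3) without integration. Clusters were named from marker lists (at least 3 markers at 2 times the other clusters' mean), by a rule settled after clusters had been seen. A doublet caller marked 1 cell in all, so it had not worked, and no cell was removed by it in the main results. Macrophages, T cells, dendritic cells, granulocytes and epithelial or mesothelial cells were clustered again at resolution 0.1. Subclusters that raised another marker list were renamed NK cells or fibroblasts, or set apart as a mixed class. The mixed class held 640 and 287 siCont and 83 and 133 siFXR1-LNA cells and was not tested. The methods leave out 1 siFXR1-LNA library without naming it, so all 4 were used.

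UMI counts were summed per library and class, and CPM is per 1000000 UMIs of a class. Counts were tested with edgeR 4.0.16 (TMM normalization, filterByExpr), the libraries being the replicates, and checked on simulated data. Levels were not compared between genes, since these 3′ counts are not per length. The genes and lists, and the rule naming all members, Fxr1, the pathway genes called (at most the 10 largest changes per class) and the 3 genes most alike, were chosen with earlier results of these data known. Values of 1 pathway gene called are not reported here. Alternatives were DESeq2 1.42.0, RLE size factors, no filter, a replicate block, each library left out, at least 500 genes per cell, no cells in the top 5% of doublet scores, and resolution 0.3.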

Additional observations from a re-analysis of the deposited data

Results flagged for a closer look

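A test of the difference between classes, with the library as a block, marked 9 changes of members that differed from the change of the same gene in macrophages (edgeR's quasi-likelihood test, Benjamini-Hochberg adjustment, 2 libraries per group). For Tgfbr1 the change minus that of macrophages was 1.31 log2 units in dendritic cells (adjusted p = 0.0025), 1.39 in B cells (0.0056) and 1.26 in T cells (0.041). These passed in 5, 5 and 3 of 5 alternatives. The T cells of the groups were made of partly different subclusters, with 1662 and 1778 siCont against 3 and 38 siFXR1-LNA cells in subcluster 0 and 0 and 10 against 726 and 510 in subcluster 1, and dendritic subcluster 1 held 534 and 283 siCont against 0 and 9 siFXR1-LNA cells. For Tgfb3, which was at 1.54 to 15.9 CPM in macrophages, it was -2.61 in fibroblasts (adjusted p = 0.0043), -1.44 in B cells (0.037) and -1.59 in granulocytes (0.046), which passed in 4, 3 and 2 of 5 alternatives. Tgfb3 ranged from 3.03 to 23.5 CPM in T cells, 3.77 to 17.1 CPM in B cells and 3.42 to 20.5 CPM in granulocytes. These ranges overlapped each other and that of macrophages, and the part of RNA from other cells in the Tgfb3 differences was not tested. For Tgfbi the change minus that of macrophages was -1.72 in granulocytes (adjusted p = 0.0044) and 1.41 in B cells (0.034), which passed in 3 and 4 of 5 alternatives. The Tgfbi level of B cells (10.9, 8.15, 36.3 and 35.5 CPM) was close to that of T cells in the same libraries (15.5, 7.19, 34.8 and 29.6 CPM). For Tgfb2 it was 1.87 in granulocytes (adjusted p = 0.02), which passed in 2 of 5 alternatives and ranged from 0.72 to 3.50 with each library left out. The Tgfb2 level of granulocytes (20.5, 2.85, 52.3 and 17.4 CPM) was close to that of T cells in the same libraries (15.9, 3.83, 44.5 and 19.3 CPM). Without siFXR1-LNA replicate 1, 7 of the 9 no longer passed, and without siFXR1-LNA replicate 2, 5 no longer passed.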

How the results depend on the processing

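RLE size factors and at least 500 genes per cell left the count of members called within 1.5 times in all 9 classes, and the signs of member changes differed in 31 of 815 values, none of them called. With DESeq2 the members called were 2 in B cells, 2 in T cells, 1 in dendritic cells, 3 in granulocytes and 5 in macrophages, and the other pathway genes 9, 6, 7, 6 and 25, with 2 in fibroblasts. Without a filter on low counts they were 4, 4, 3, 0 and 6, with 2 in fibroblasts, and the pathway genes 18, 15, 15, 0 and 31, with 14 in fibroblasts and 9 in epithelial or mesothelial cells. At resolution 0.3, dendritic cells had 1 member and 5 pathway genes and T cells 2 pathway genes. Without cells of high doublet score, fibroblasts had 0 members. With a replicate block the members called were 4 in B cells, 3 in T cells, 3 in dendritic cells, 2 in fibroblasts, 4 in granulocytes, 5 in macrophages and 1 in mast cells, 24 in all against 5, and the pathway genes 15, 9, 14, 8, 14, 29 and 1. Over all genes the share of tests called was 9.32% with the block, 6.26% with DESeq2 and 5.84% without the filter, against 4.54%. Same-numbered libraries share only a number, their deviations correlating at -0.0914 to 0.371 by class. Leaving out each library in turn gave 0 to 5 members in B cells, 0 to 4 in T cells and in dendritic cells, 0 to 3 in epithelial or mesothelial cells and in macrophages, 0 to 2 in fibroblasts and 0 to 6 in granulocytes. For pathway genes it gave 0 to 20, 0 to 11, 1 to 18, 1 to 10, 1 to 16, 1 to 12 and 2 to 22 in the same order. Without siFXR1-LNA replicate 1, 2 member tests and 1016 tests of all genes passed, against 5 and 4426. The mean share of macrophages with a UMI was 8.19% for Tgfb1 and 3.14% for Tgfbr1 in cells thinned to 500 UMIs, and unthinned 59.3%, 26.2%, 27.2% and 48.3% for Tgfb1, Tgfbr1, Ccn2 and Thbs1. The causes of these differences were not tested. There were 2 pools per group, and only 14 fibroblasts in siCont replicate 2, which limits the fibroblast values.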

Other observations

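Over 43 sums of 12 classes and libraries, the genes whose log2 level was most alike differed by member, as a description over sums that share libraries and cell classes. Tgfb1 was nearest to Fermt3 (Pearson's r = 0.924), Tagln2 and Laptm5, genes of blood cells or of the cytoskeleton. Tgfb2 was nearest to Fstl1 (0.925), Fermt2 and Wwc2, and Tgfb3 to Synpo (0.832), Wwtr1 and Tns2. Tgfbr1 was nearest to Cdyl (0.935), Atp13a3 and Tnks, Tgfbr2 to Idnk (0.912), Dtd1 and Rapgef6, and Acvr1 to Ninl (0.893), Ccdc57 and Fam135a. Among the target genes, Ccn2 was nearest to Timp3 (0.923), Hspb1 and Fetub, Thbs1 to Slpi (0.816), F10 and the platelet factor Pf4, and Tgfbi to the lipid-droplet gene Plin2 (0.898), Cd300c2 and App.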
